A study of Mus musculus with 5 samples.

Results

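The genes described here belong mostly to the machinery that brings proteins into mitochondria and trims them there. They were chosen by name from a deposited table of 12930 genes: every gene whose name begins with Timm, Tomm, Grpel, Pmpc, Chchd or Immp, together with Pam16, Samm50 and Dnajc19, and without Immp2l. This gave 29 genes, all protein-coding, of which 28 had a value in every siRNA library. Tomm20l lacked values in the siTfam libraries. Not all of the 29 are import machinery: 7 were grouped as other CHCHD proteins and 2, Timmdc1 and Tomm34, as having another main role. Of 42 gene symbols listed by role, 13 were not among the deposited names and are not analysed here, including the receptor genes Tomm20 and Tomm22, Timm10, Timm22, Pam16 and Grpel1. Immp2l, an inner membrane peptidase gene that the rule leaves out, had log2 values of 1.99 and 2.13 with siDhx30 and 1.98 and 2.21 with siTfam on the scale explained below.

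Nearly all mitochondrial proteins are encoded in the nucleus and made in the cytosol. The TOM complex is their gate through the outer membrane, after which the SAM complex, the TIM23 and TIM22 translocases, small TIM chaperones and an oxidative folding relay sort them by destination. An Hsp70 motor in the matrix completes the transfer, and presequence peptidases then remove the targeting signal.

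RNA was sequenced from OG2 mouse embryonic stem cells, a line whose label gives a cross of (CBA/CaJxC57BL/6J) with 129Sv/Jae mice. The 5 libraries were 2 transfected with siRNA against Dhx30 (siDhx30), 2 with siRNA against Tfam (siTfam) and 1 negative control (NC). Dhx30 encodes an RNA helicase of mitochondrial RNA granules, and Tfam encodes the factor that packages and transcribes mitochondrial DNA. All cells spent 24 h on gelatin in medium with LIF, the MEK inhibitor PD0325901 and the GSK3 inhibitor CHIR99021. They then received 50 nM siRNA and 36 h in medium with bFGF, Activin A and knockout serum replacement. The deposited values are 1 log2 fold change per gene for each siRNA library. Whether the replicates came from separate cultures is not stated in the labels, so p-values rest on the spread between the replicates of the 4 siRNA libraries alone, which may be technical, and the single NC library is assumed to vary as they do.

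Ratios are given here as siRNA over NC, with the direction and the denominator inferred. The column headings name neither. All 1574 deposited values of the 842 genes with a missing value were below 0, against 48.7% of values of complete genes. A gene abundant enough in the shared NC library would have had a ratio in every column, so a gene listed in some columns alone was taken to owe its entry to the siRNA library, and the deposited signs were turned round. The filter behind the table is not stated, and the naive stem cell markers Pou5f1, Sox2 and Nanog are absent from it. Absence of a gene is therefore not read as low abundance, and the inferred direction is less certain. If that inference were wrong, every direction below would turn. Read totals were not given with the ratios, and the depth is unknown. Neither targeted gene passed the test: Dhx30 lay at -0.40 and -0.20 in siDhx30 libraries and at 0.01 and 0.04 in siTfam libraries, and Tfam lay at -0.28 and -0.02 in siTfam libraries and at 0.12 and -0.01 in siDhx30 libraries. Limma gave adjusted p = 0.998 for Dhx30 in siDhx30 against NC and 0.987 for Tfam in siTfam against NC, so a lower RNA level of either target was not shown. Ratios carry no levels, so the cell type could not be checked, and of 10 naive stem cell markers 2 were found, Esrrb and Tfcp2l1.

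Between the siRNAs, import and processing genes had more members lower in siDhx30 than in siTfam, by a small amount and with no single gene past the test. Of 28 genes 20 had a lower mean in siDhx30, and the median log2 difference was -0.12, against -0.0015 over all 12088 genes tested. In 9 of 28 both siDhx30 libraries lay below both siTfam libraries, where 14.3% of all genes tested did so. In 2 of 28 both siDhx30 libraries lay above, where 14.7% of all genes did so. The 9 included the channel gene Tomm40, the outer membrane insertase gene Samm50 and the translocase genes Timm17b, Timm21 and Timm50. The others were the motor genes Timm44 and Dnajc19, and Chchd1 and Chchd7 from the group of other CHCHD proteins. The 2 were Timm9 and Pmpca. In Tomm40, Timm44 and Pmpca the groups nearly touched: the nearest siDhx30 and siTfam values were -0.19 and -0.18, -0.16 and -0.15, and 0.17 and 0.16. The nearest values were also close in Chchd1 (0.32 and 0.34), Dnajc19 (0.18 and 0.21), Timm21 (0.03 and 0.06) and Timm50 (-0.18 and -0.14). The median limma SE of the members between siRNAs was 0.17. Chchd7, Samm50, Timm17b and Timm9 lay further apart. In bulk samples such as these, fewer cells of a type and less RNA per cell cannot be told apart.

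Limma, with Benjamini-Hochberg adjustment over all genes, called 0 of 28 members between siDhx30 and siTfam, where 0.0% of all genes tested were called, and 0 of 28 had an unadjusted p under 0.05, where 2.79% of all genes did. The median difference rests partly on 1 library: leaving out siTfam replicate 2 gave -0.05, and leaving out siTfam replicate 1 gave -0.16. Transcript length moved with it. Across 9257 protein-coding genes the siDhx30 minus siTfam difference was correlated with transcript length (Spearman 0.28), a description over genes that share the same 4 libraries, and the members have shorter transcripts, with a median of 2501 bases against 3612. With trends on length and GC content removed per library the median difference was -0.05, with 19 of 28 genes lower. Without overlap 7 of 28 then lay below (13.8% of the 9257 protein-coding genes) and 4 above (15.4% of the 9257).

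**Figure D1:**
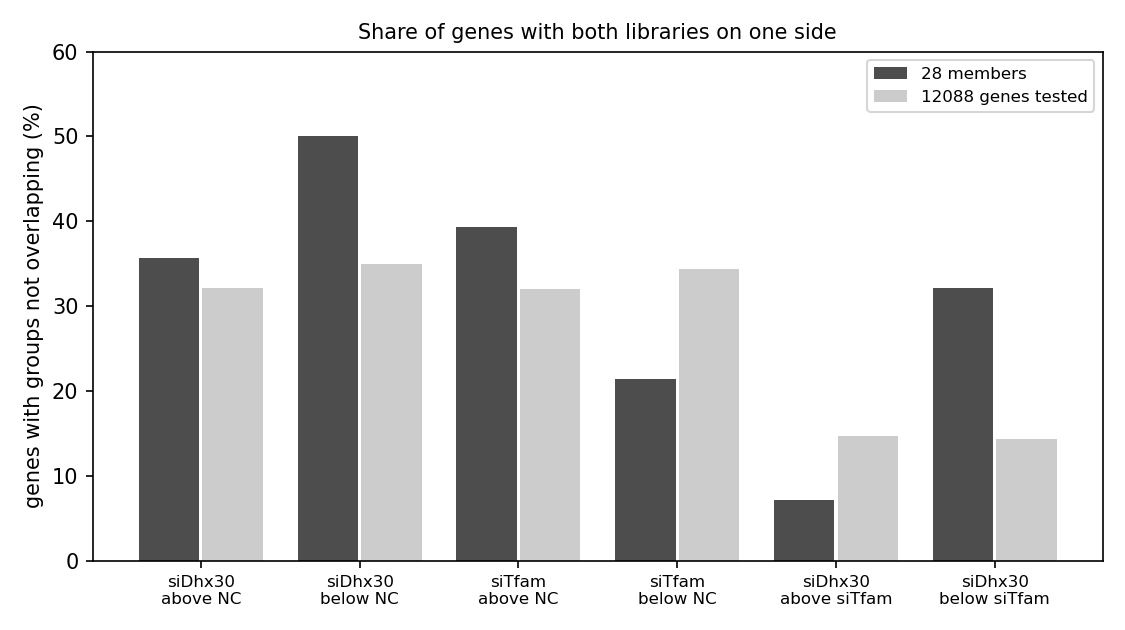
Percent of genes whose libraries do not overlap, for the 28 import and processing genes (dark bars) and all 12088 genes tested (light bars), in each direction of each comparison. The dark bar stands above the light bar by the widest ratio for siDhx30 below siTfam, 32.1% against 14.3%.

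**Figure D2:**
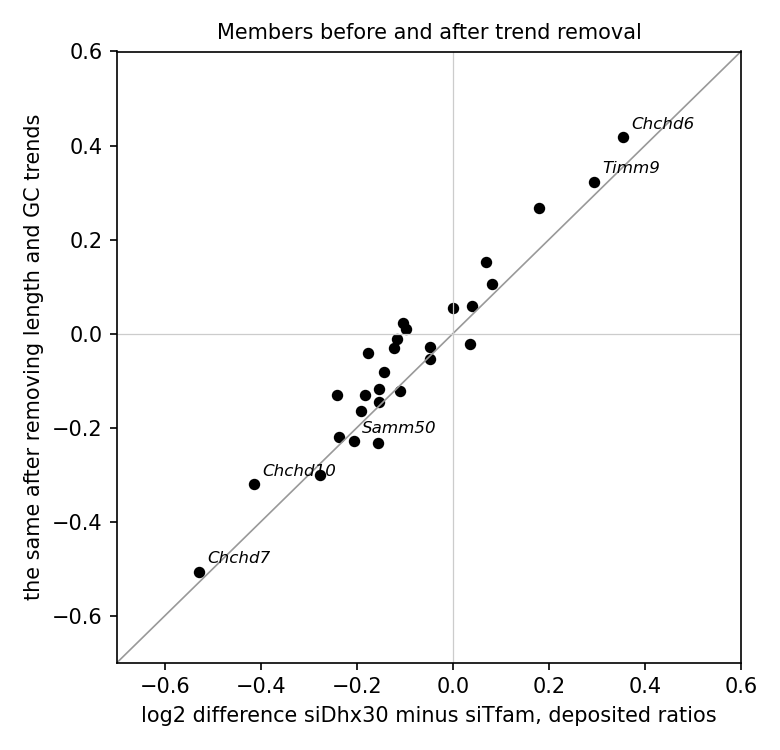
Log2 difference of siDhx30 minus siTfam for each of the 28 genes, from the deposited ratios (horizontal axis) and after removal of length and GC trends (vertical axis), with the line of equality. Of the 28 points 22 lie above the line, and Chchd7 stays lowest, at -0.53 before and -0.51 after.

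Against NC the siRNAs gave different counts. Of the 28 genes 14 lay below NC in both siDhx30 libraries, where 34.9% of all genes tested did, and 10 lay above NC in both, where 32.1% did. In siTfam 6 of 28 lay below NC in both libraries, where 34.4% of all genes did, and 11 lay above in both, where 32.0% did. Library by library, the member median was -0.04 in replicate 1 and -0.07 in replicate 2 of siDhx30, and -0.04 in replicate 1 and 0.11 in replicate 2 of siTfam, with all-gene medians between -0.01 and -0.0057. Limma called 0 of 28 in siDhx30 against NC and 0 of 28 in siTfam against NC, where 0.0% of all genes were called in either. At an unadjusted p under 0.05 the counts were 0 of 28 (5.04% of all genes) in siDhx30 and 1 of 28 (6.11%) in siTfam. Both comparisons share the single NC library, so a gene on the same side in both is no independent repeat.

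**Figure D3:**
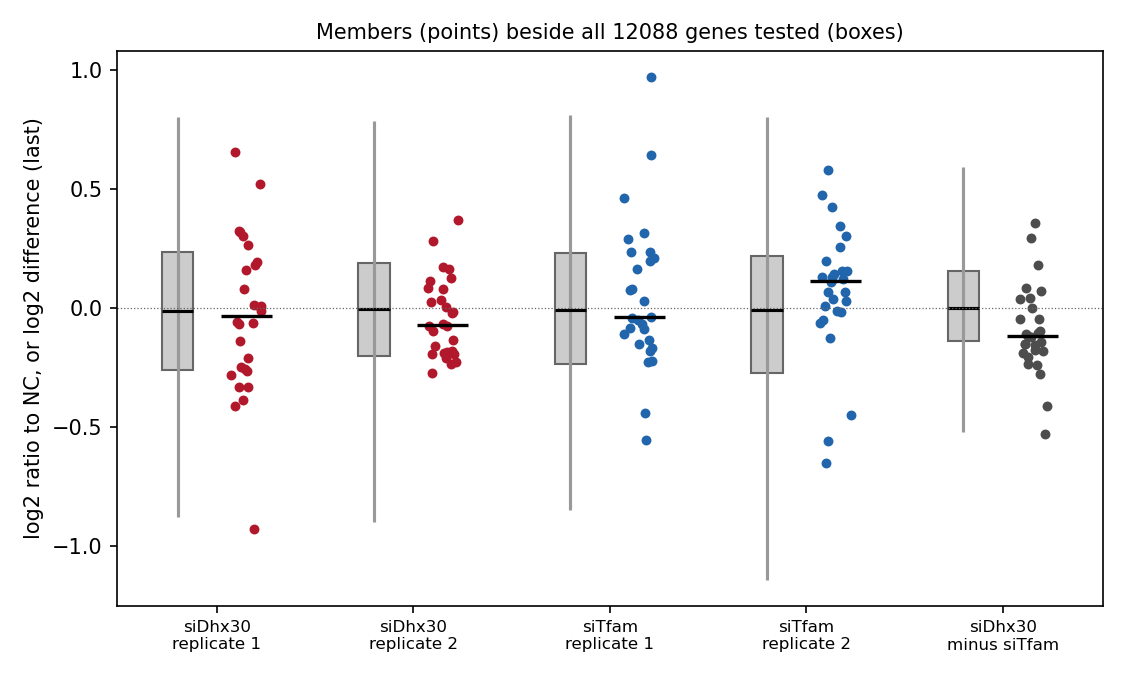
Log2 ratio to NC of each of the 28 genes (points, with their median as a thick line) in each siRNA library, and in the last column the log2 difference of siDhx30 minus siTfam. Boxes give the quartiles and median of all 12088 genes tested and lines their 5th to 95th percentiles, and the point clouds lie within or near those lines, with the siTfam replicate 2 median at 0.11 and the difference median at -0.12.

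Promoters of the members were read for short motifs of factors known to serve genes for mitochondrial proteins. RefSeq promoter windows (GRCm38.p6) were matched for 24 of the 29, and the 250 bases before the start were searched on both strands. The ETS core CCGGAAG, recognised by GABPA, occurred in 8 of 24, against 14.6% of 8263 promoters of genes tested. The longer form CCGGAAGTG, which contains that core, occurred in 3 of 24, against 3.15%. The NRF-1 motif, read as GCGC, any base and TGCGC, occurred in 1 of 24, Chchd4, against 8.60%, and AAGATGGC of YY1 in 0 of 24, against 2.17%. The 3 promoters with the longer ETS form are shown because they carry the fullest match and belong to genes of unlike role, a receptor, a channel and a complex I assembly factor. Each excerpt runs 5′ to 3′ on the gene's strand, with that form or its reverse complement in capitals.
Tomm70a, chr16:57121609-57121667, plus strand: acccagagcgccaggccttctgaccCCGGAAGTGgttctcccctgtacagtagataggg
Timm23, chr14:32201907-32201965, minus strand: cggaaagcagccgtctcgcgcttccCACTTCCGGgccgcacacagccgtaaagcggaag
Timmdc1, chr16:38522776-38522834, minus strand: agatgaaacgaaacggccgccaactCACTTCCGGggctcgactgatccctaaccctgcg
The form begins 80, 49 and 146 bases before the start in that order. The siDhx30 minus siTfam difference of these genes was 0.04 for Tomm70a, -0.12 for Timm23 and 0.18 for Timmdc1. Over the 8 genes with the core the median difference was 0.02 (range -0.12 to 0.18), and over the 15 tested genes whose window lacks it -0.16 (range -0.41 to 0.36). Among the 15, the bases after the start were not found early in an annotated transcript for Dnajc19, Samm50 and Timm17b. Their windows are uncertain, and their differences were -0.24, -0.21 and -0.18. Chchd7, at -0.53, had no window. The difference between the medians was not tested. A match describes letters in a window and is not evidence of binding.

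Genes of the TOM complex lay on both sides of NC. Tomm40, which encodes the pore (GRCm38, chromosome 7, 19701313 to 19715438, minus strand), lay at log2 ratios of -0.27 and -0.19 in siDhx30 libraries and -0.18 and 0.03 in siTfam libraries. Its paralogue Tomm40l (ENSMUSG00000005674.9; chromosome 1, 171216011 to 171222514, minus strand) lay on the other side of NC, at 0.52 and 0.37 in siDhx30 libraries and 0.97 and 0.47 in siTfam libraries. The siTfam mean of Tomm40l was 0.72 (SE 0.29, n = 2), a fold of 1.65 with a 95% interval of 0.947 to 2.87 (limma adjusted p = 0.847). Its siDhx30 mean was 0.44 (SE 0.29, n = 2; limma adjusted p = 0.998), and the siRNAs overlapped. Of its exon bases 64.3% are also exon of Nr1i3 on the opposite strand, and strand use in counting is not stated, so reads of the pair cannot be told apart.

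Tomm6, a small subunit that stabilises the complex, lay at 0.65 and 0.08 in siDhx30 libraries and 0.64 and 0.30 in siTfam libraries. All 4 values were above NC, but the siDhx30 replicates differed by 0.58, and 84.2% of its exon bases are shared with other annotated genes, so it is uncertain. Tomm70a, a receptor for hydrophobic carrier precursors, stayed close to NC, at 0.0034 and 0.02 in siDhx30 libraries and -0.05 and 0.0076 in siTfam libraries. The siRNAs overlapped, and siTfam replicates lay on both sides of NC.

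Tomm20l, a paralogue of the import receptor gene Tomm20, had the largest ratio among the 29, 3.68 and 3.66 in siDhx30 libraries, and no value in siTfam libraries. Genes with a missing value had ratios above NC only, so the side on which it lies carries no information of its own. No test of Tomm20l is given for that reason. Tomm20l and Timm9 are neighbours on chromosome 12 (71111428 to 71123221, plus strand, and 71123173 to 71136684, minus strand), and their ends overlap by 49 bases on opposite strands.

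Samm50, the core of the complex that inserts barrel proteins into the outer membrane, separated the siRNAs. It lay at -0.14 and -0.08 in siDhx30 libraries and at 0.08 and 0.11 in siTfam libraries. The difference was -0.21 (SE 0.15, 95% interval -0.61 to 0.20; limma adjusted p = 0.999), so it did not pass.

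The small TIM chaperones, which carry hydrophobic precursors across the intermembrane space, did not lie on one side of NC. Timm9 (ENSMUSG00000021079.16), a partner of Timm10 in the main chaperone ring, had ratios of -0.39 and -0.23 in siDhx30 libraries and -0.56 and -0.65 in siTfam libraries. Every siRNA library lay below NC, and the siTfam libraries lay below the siDhx30 libraries. In siTfam against NC the mean was -0.60 (SE 0.19, n = 2), a fold of 0.658 with a 95% interval of 0.454 to 0.955. It was the member with the smallest unadjusted p, 0.0356, but the limma adjusted p was 0.776. With siDhx30 its mean was -0.31 (SE 0.19; limma adjusted p = 0.998), and the siDhx30 minus siTfam difference was 0.29 (SE 0.16; limma adjusted p = 0.999).

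Timm10b, a small TIM bound to the carrier translocase, lay at 0.08 and -0.24 in siDhx30 libraries and -0.11 and -0.13 in siTfam libraries. Timm13, which pairs with Timm8 proteins, lay at 0.19 and -0.21 in siDhx30 libraries and 0.31 and 0.15 in siTfam libraries. The siDhx30 replicates of both straddled NC.

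In the TIM23 translocase, which passes presequence proteins through the inner membrane, the alternative channel subunits lay on opposite sides of NC. Timm17a had ratios of 0.26 and 0.08 in siDhx30 libraries and 0.23 and 0.42 in siTfam libraries. Timm17b had ratios of -0.28 and -0.19 in siDhx30 libraries and -0.04 and -0.06 in siTfam libraries. The siDhx30 mean of Timm17b was -0.24 (SE 0.18, n = 2; limma adjusted p = 0.998). Its siTfam mean was -0.05 (SE 0.18; limma adjusted p = 0.994), a fraction of the SE. The means of Timm17a were 0.17 in siDhx30 and 0.33 in siTfam (SE 0.21 each; limma adjusted p = 0.998 and 0.950). The coding sequence of each has 1 close pseudogene copy in the annotation, at 96.3% identity for Timm17a and 93.0% for Timm17b.

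The channel gene Timm23 lay at -0.21 and -0.08 in siDhx30 libraries and -0.09 and 0.04 in siTfam libraries. Its coding sequence matches 6 other annotated genes, 5 of them pseudogenes, at up to 100% identity, so its reads can be split and its values are uncertain. Timm50, the receptor on the intermembrane space side, lay at -0.25 and -0.18 in siDhx30 libraries and -0.14 and -0.05 in siTfam libraries, below NC in all and lower in siDhx30. Timm21, which links the translocase to the TOM complex, stayed close to NC, at 0.01 and 0.03 in siDhx30 libraries and 0.07 and 0.06 in siTfam libraries. Although Timm21 counts among the 9 genes without overlap, its difference was -0.05, a fraction of the limma SE of 0.14.

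The import motor draws precursors into the matrix. Timm44, its anchor on the translocase, lay at -0.26 and -0.16 in siDhx30 libraries and -0.15 and 0.12 in siTfam libraries. Dnajc19, a J-protein partner of mitochondrial Hsp70, lay at 0.18 and -0.19 in siDhx30 libraries and 0.21 and 0.25 in siTfam libraries, with siDhx30 replicates on both sides of NC. Grpel2, a nucleotide exchange factor for the same Hsp70, lay at 0.32 and 0.0029 in siDhx30 libraries and 0.29 and 0.13 in siTfam libraries. None of the 3 passed in any comparison.

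Chchd4 encodes the oxidoreductase that traps small cysteine-rich proteins in the intermembrane space. Its ratios were -0.41 and -0.14 in siDhx30 libraries and -0.22 and -0.02 in siTfam libraries, below NC throughout, and the siRNAs overlapped. Among proteins of the CHCHD family, Chchd7 separated the siRNAs most. Chchd7 (ENSMUSG00000042198.12; chromosome 4, 3938888 to 3951046, plus strand) lay at -0.06 and -0.18 in siDhx30 libraries and at 0.24 and 0.58 in siTfam libraries. The groups lay on opposite sides of NC. The difference was -0.53 (SE 0.19, n = 2 each), a fold of 0.693 with a 95% interval of 0.478 to 1.00 (limma adjusted p = 0.999). Its unadjusted p of 0.0514 was the smallest of the 28 in this comparison. In siTfam against NC its mean was 0.41 (SE 0.24; limma adjusted p = 0.931).

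**Figure D4:**
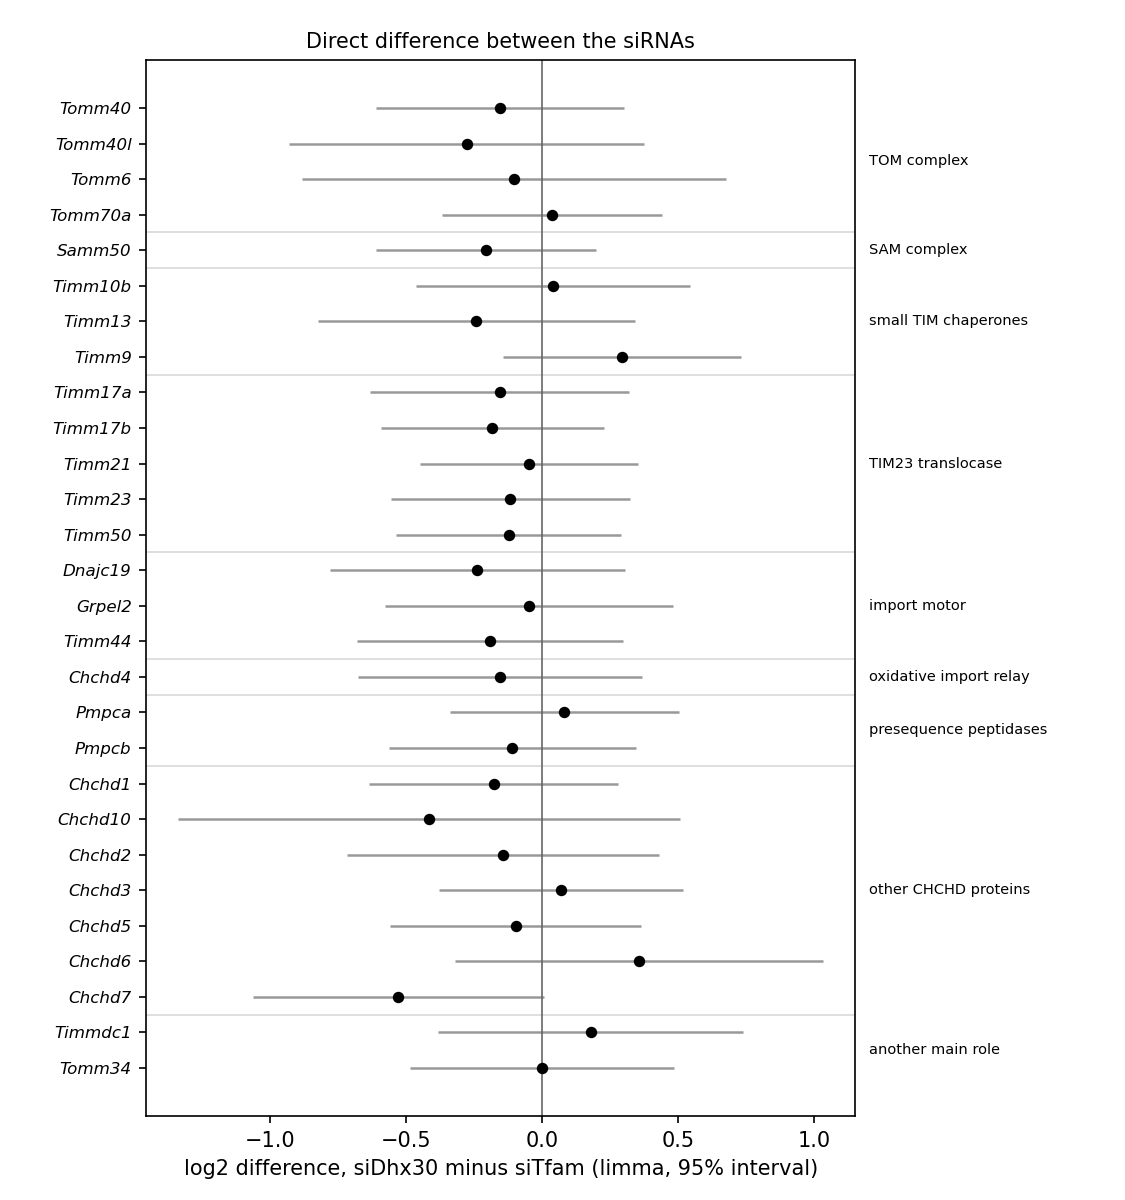
Limma log2 difference of siDhx30 minus siTfam for each of the 28 genes (points) with its 95% interval (lines), grouped by role. All 28 intervals include 0, and Chchd7 at -0.53 comes nearest to leaving it.

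The MICOS subunit genes Chchd3 and Chchd6, whose proteins shape the cristae, differed from each other. Chchd3 lay at 0.16 and 0.16 in siDhx30 libraries and 0.20 and -0.01 in siTfam libraries. Chchd6 lay at 0.0072 and 0.28 in siDhx30 libraries and 0.03 and -0.45 in siTfam libraries. The Chchd6 difference of 0.36 (SE 0.24; limma adjusted p = 0.999) went with a low siTfam replicate 2, the 1 library below NC.

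Chchd10 and Chchd2 are paralogues of the intermembrane space. Chchd10 lay at -0.93 and -0.28 in siDhx30 libraries and -0.44 and 0.07 in siTfam libraries, and had the widest gap between replicates of all 28 in both groups, 0.66 in siDhx30 and 0.51 in siTfam. Its siDhx30 mean of -0.60 was the lowest of the 28 against NC, with an SE of 0.40 and a limma adjusted p of 0.998, and its difference between siRNAs was -0.41 (SE 0.33; limma adjusted p = 0.999). Chchd2 lay at -0.33 and -0.02 in siDhx30 libraries and -0.17 and 0.11 in siTfam libraries, and its coding sequence matches 5 other annotated genes at up to 100% identity. In both paralogues replicate 1 was lower than replicate 2 under both siRNAs. Chchd5, a small cysteine-rich protein gene, lay at -0.01 and -0.02 in siDhx30 libraries and -0.04 and 0.20 in siTfam libraries.

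**Figure D5:**
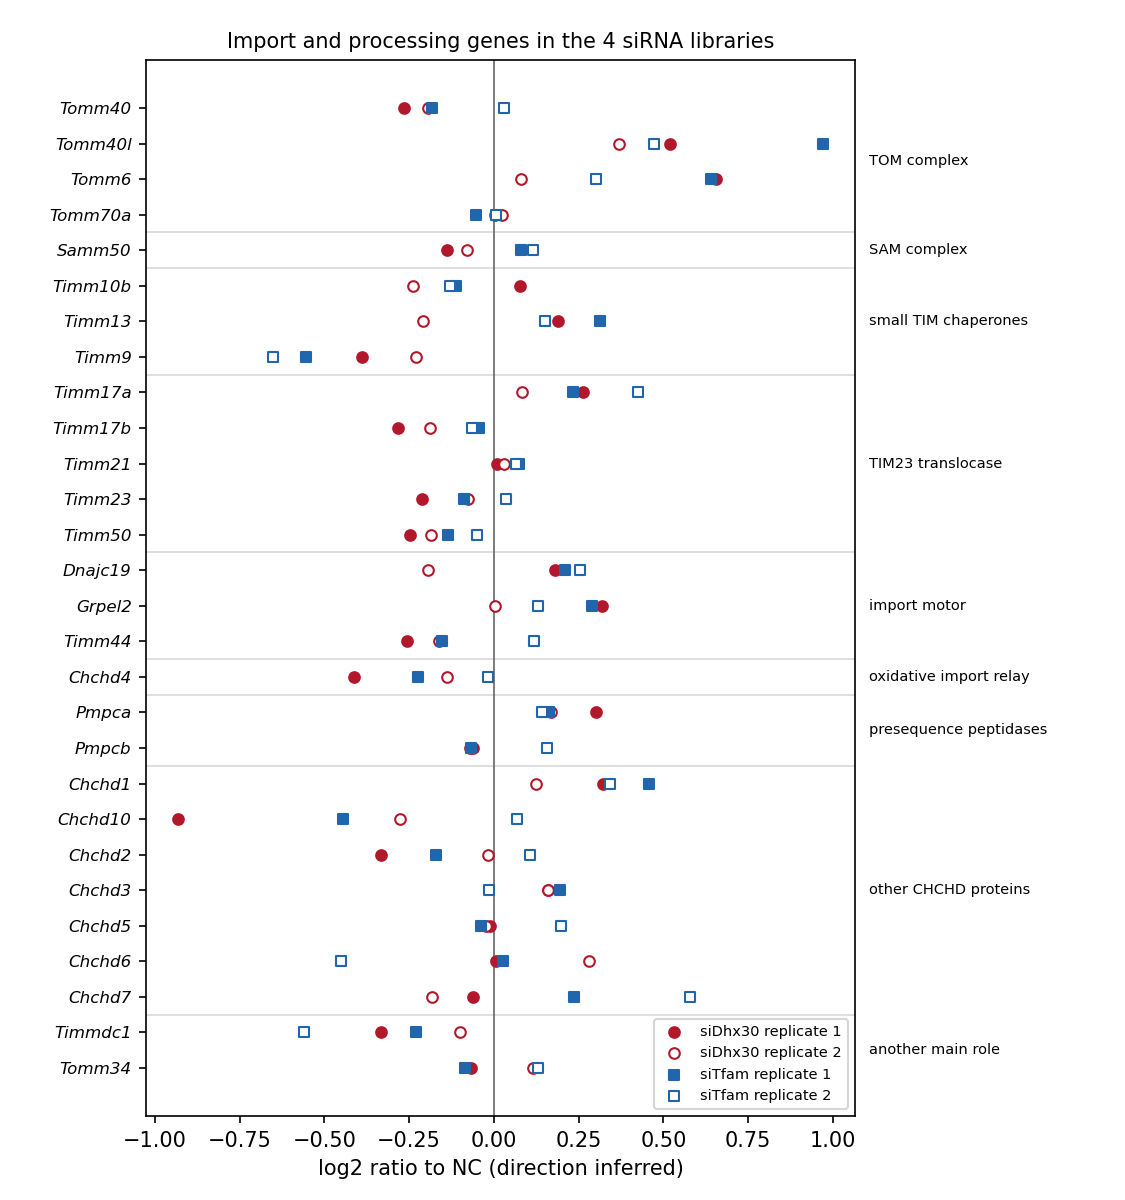
Log2 ratio to NC of each of the 28 genes in each siRNA library, grouped by role, with siDhx30 as red circles, siTfam as blue squares and open symbols for replicate 2. Timm9 has all 4 points left of NC, between -0.65 and -0.23, Tomm40l has all 4 to the right, and Samm50 and Chchd7 have the siRNAs on opposite sides.

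The presequence peptidase has a regulatory and a catalytic subunit. Pmpca, the regulatory one (chromosome 2, 26389339 to 26397122, plus strand), lay at 0.30 and 0.17 in siDhx30 libraries and 0.16 and 0.14 in siTfam libraries. It was above NC throughout, with a siDhx30 mean of 0.24 (SE 0.19, n = 2; limma adjusted p = 0.998), and 20.4% of its exon bases are shared with Inpp5e on the opposite strand. Pmpcb, the catalytic subunit gene, lay at -0.06 and -0.07 in siDhx30 libraries and -0.07 and 0.16 in siTfam libraries.

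The remaining 3 genes carry the names but act elsewhere, as do the MICOS subunit genes Chchd3 and Chchd6 above. Chchd1, which encodes a protein of the small mitochondrial ribosomal subunit (chromosome 14, 20703006 to 20704425, plus strand), lay at 0.32 and 0.12 in siDhx30 libraries and 0.46 and 0.34 in siTfam libraries. Its siTfam mean was 0.40 (SE 0.20, n = 2; limma adjusted p = 0.908). Timmdc1, a complex I assembly factor gene (chromosome 16, 38498347 to 38522663, minus strand), lay at -0.33 and -0.10 in siDhx30 libraries and -0.23 and -0.56 in siTfam libraries, with a siTfam mean of -0.39 (SE 0.25, n = 2; limma adjusted p = 0.949). Tomm34, a cytosolic co-chaperone gene, lay at -0.07 and 0.11 in siDhx30 libraries and -0.09 and 0.13 in siTfam libraries.

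Replicates of these genes lay close together for this table. The median gap between replicates was 0.16 in siDhx30 and 0.20 in siTfam, against 0.23 and 0.24 over all genes tested. The median limma SE of the members was 0.21 against NC and 0.17 between siRNAs, and over all genes 0.25 and 0.20. These libraries could not call differences several times that size: Timm9 at -0.60 with an SE of 0.19 in siTfam against NC did not pass. Beside Timm23, Chchd2, Timm17a and Timm17b, 5 members have 1 pseudogene copy of their coding sequence, at identities from 91.5% for Chchd4 and Chchd5 to 98.9% for Dnajc19. Across libraries the ratio of protein-coding genes had Spearman correlations with GC content from -0.33 in siDhx30 replicate 1 to -0.07 in siTfam replicate 2, and with transcript length from -0.18 in siTfam replicate 2 to 0.18 in siDhx30 replicate 1, each over 9257 genes.

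Other genes of the pathway were counted from a list of 38, of which 32 were measured. It covered matrix chaperones, metaxins, inner membrane proteases, prohibitins, MICOS and cytosolic chaperones. Limma called 0 of 32 in each comparison, where 0.0% of all genes tested were called. At an unadjusted p under 0.05 there was 1 of 32 in siTfam against NC, where 6.11% of all genes tested were. There were 0 of 32 in siDhx30 against NC (5.04% of all genes) and 0 of 32 between the siRNAs (2.79%). The 1 gene was Apool, a MICOS subunit gene, at 0.47 and 0.37 in siDhx30 libraries and 0.70 and 0.80 in siTfam libraries (siTfam mean 0.75, SE 0.19, limma adjusted p = 0.676). The lowest in siTfam was the metaxin gene Mtx3, at -0.07 and -0.03 in siDhx30 libraries and -0.28 and -0.86 in siTfam libraries. In siDhx30 the lowest mean was that of Oxa1l, an inner membrane insertase gene (-0.35 and -0.20). Some of the 32 separated the siRNAs, in either direction. Lower in siDhx30 were Apool (difference -0.33) and the prohibitin gene Phb, a scaffold of the inner membrane. Phb lay at -0.06 and -0.09 in siDhx30 libraries and 0.17 and 0.15 in siTfam libraries (difference -0.24). Mtx3 (difference 0.52) and Clpp (0.24) were higher in siDhx30. The limma adjusted p was 0.999 for each of these differences. The median siDhx30 minus siTfam difference of the 32 was -0.0051, with 3 of 32 without overlap below (14.3% of all genes) and 4 of 32 above (14.7%). The median of the 28 members was -0.12, and the difference between the lists was not tested.

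Markers of cell states and other cell types were read alongside. The 2 naive markers lay between -0.24 and 0.06 in siDhx30 libraries, and reached -1.14 and 0.85 in siTfam replicate 1 and 1.71 in siTfam replicate 2. The other value in siTfam replicate 2 was 0.02, so the siTfam replicates disagreed. With 2 of 10 listed markers found, the wider spread in siTfam does not describe a cell state. The 3 formative markers had medians of 0.23 and 0.16 in siDhx30 libraries and 0.08 and 0.03 in siTfam libraries. The 6 complete primitive endoderm markers had medians of -0.20 and -0.07 in siDhx30 libraries and -0.42 and -0.66 in siTfam libraries. All 6 lay below NC in both siTfam libraries, from -2.21 to -0.09, where 34.4% of all genes tested did so. Of the 7 found, Gata6 was left out because it lacked a value in some library. Wherever it had a value it lay above NC, as did every gene with a missing value. The 4 fibroblast or feeder markers had medians of 0.09 and 0.03 in siDhx30 libraries and -0.07 and -0.03 in siTfam libraries, and ran from -0.87 to 0.79. The part of any of these lists in the differences between siRNAs was not tested.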

How the data were processed

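Total RNA of 5 libraries was sequenced as read pairs after fragmentation and template-switching cDNA synthesis, per the labels' protocols. Tools named in the submitters' processing notes are HISAT2, featureCounts, bcl2fastq and DESeq2, on GRCm38, without settings. The authors deposited log2 fold changes, 1 column per siRNA library, per the file headers; depth is unknown, and 0 value columns were left unused. Signs were turned to siRNA over NC.

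Of 12930 names, 12660 matched a GENCODE M21 symbol. The 12088 complete genes were fitted with limma 3.58.1 in R 4.3.3, with NC as a column of zeros, 1 coefficient per group, 2 residual degrees of freedom and robust=TRUE. NC was thereby assumed to vary like the siRNA libraries. P-values were adjusted by Benjamini-Hochberg over all genes (threshold 0.05). Every member is given by its library values, and fitted values are given for the 5 members with the smallest p per comparison and for others where a sentence turns on them. Exon overlaps came from GENCODE, and coding copies from BLAST 2.17.0 (matches of at least 150 bases at 90% identity). The transcript used for length and GC content was the longest annotated one. Python 3.11.15 and matplotlib 3.10.9 were used. Members and lists were chosen with earlier results of these data known. Alternatives left out each siRNA library, kept genes with missing values, used robust=FALSE, centred libraries, or removed length and GC trends. Others left out mitochondrially encoded genes or blocked on replicate number. A further alternative, not planned beforehand, fitted the protein-coding genes alone with trends kept.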

Additional observations from a re-analysis of the deposited data

Results flagged for a closer look

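Chchd7 and Samm50 had both siDhx30 libraries on one side of NC and both siTfam libraries on the other. The share of all genes with this pattern is not given here, and the sides depend on the single NC library. Samm50 lay within its SE of NC under each siRNA, with means of -0.11 and 0.10 (SE 0.18). Chchd7 did so in siDhx30, with a mean of -0.12 (SE 0.24). The siDhx30 minus siTfam difference was -0.53 for Chchd7 and -0.21 for Samm50, and neither passed limma's test of the difference itself (adjusted p = 0.999 for each). With length and GC trends removed the differences were -0.51 and -0.23.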

How the results depend on the processing

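Limma called 0 of the 28 complete members in siDhx30 against NC and in siTfam against NC under the 10 alternative fits run for each, and in siDhx30 against siTfam under 11. In every one of these fits 0 of all genes tested were called, so the count is not particular to the members. For the 5 members with the smallest p per comparison and for Dhx30 and Tfam, all 197 values under alternatives kept their direction. The smallest limma adjusted p was 0.616. Many of these values could not change, since several fits alter only the spread or the set of genes. Those fits kept missing values, used robust=FALSE, fitted protein-coding genes, left out mitochondrially encoded genes or blocked on replicate. Against NC, leaving out a library of the other siRNA also keeps the estimate. The kept direction is therefore no test of robustness, and these members were picked by p in the same data. Among all 28 members, 3 changed the sign of the siDhx30 minus siTfam difference with length and GC trends removed: Chchd5 lay at -0.097 before and 0.0090 after, Tomm6 at -0.10 and 0.022, and Tomm70a at 0.036 and -0.023. The member median in siDhx30 against NC was -0.04, and -0.085 with length and GC trends removed; leaving out 1 library gave -0.073 to -0.037. In siTfam against NC it was 0.03, -0.01 with those trends removed, and -0.04 to 0.11 when 1 library was left out: -0.04 without siTfam replicate 2 and 0.11 without siTfam replicate 1. In siDhx30 against siTfam that range was -0.16 to -0.05. The count of members with siDhx30 below siTfam without overlap was 9, and 12 to 17 when 1 library was left out, where fewer libraries have to clear each other and 29.4% to 35.7% of all genes did so. It was 18 between the libraries numbered 1 alone (50.9% of all genes) and 22 between those numbered 2 alone (49.5%). These counts were chosen after seeing the data. Same-numbered libraries deviated together (correlation 0.25 over genes), but a pairing is not stated in the labels. With a replicate block limma called 0 of 28 members, where 0 of 12088 genes were called. The smallest limma adjusted p of a member was then 0.886. The member median of -0.12 cannot change under this block, which leaves the difference of each gene as it was. Depth is unknown, so ratios of low counts could not be told from those of abundant genes.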
